A study of Physalis pubescens with 5 samples.

Results

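Polygalacturonases and pectate lyases cut the backbone of pectin, the gel-forming polysaccharide of plant cell walls. Their transcripts were followed here in flower and fruit of Physalis floridana P106, a relative of tomato whose organism label reads Physalis pubescens. Members were unigenes, transcripts assembled from the sequencing reads themselves, whose deposited protein match was described with the words polygalacturonase, pectate lyase or rhamnogalacturonan and without the word pollen. This rule found 160 of 133571 unigenes. By their descriptions, 90 were polygalacturonases, 4 were exopolygalacturonases, 49 were pectate lyases, 14 were non-catalytic subunits of polygalacturonase and 3 were polygalacturonase inhibitors. The word rhamnogalacturonan occurred in 0 of the descriptions, and the exclusion of pollen removed 0 unigenes. The 160 unigenes carried 38 different descriptions and were 151 to 1892 bases long, with a median of 491 bases, so several can be pieces or near copies of a single gene. Most matches, 142 of 160, were to proteins of tomato (Solanum lycopersicum).

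Young fruits were collected after fertilization and floral buds before it, with 2 libraries for each organ analysed here, although the study's design text speaks of triplicates. All plants belonged to cultivar P106, with no mutant, transgene or treatment named, and were raised under glass in long days (16 h light, 8 h dark). The extraction text, which is shared by all samples, speaks of 5-day-old fruits and of 20 µg of total RNA per library. How many plants were pooled, and whether whole fruits with or without their floral remains were taken, is not given in the sources used here. Because separate plants are not stated either, a p-value here measures the spread between libraries, which may be technical. Replicates 1 of both organs share one annotation format and replicates 2 another, so fruit was also set against bud within each replicate number.

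Homogalacturonan, the main backbone of pectin, is a chain of galacturonic acid. Endopolygalacturonases hydrolyse it inside the chain and exopolygalacturonases from its end, whereas pectate lyases cleave it by elimination after pectinesterases have removed its methyl groups. In tomato the non-catalytic or beta subunit binds a polygalacturonase in the fruit wall, and polygalacturonase-inhibiting proteins are leucine-rich repeat proteins that bind polygalacturonases of fungi. In flowers these enzymes are best known from pollen and anthers, and in fruits from softening and abscission.

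The libraries held 8.2e+06 to 9.0e+06 counted reads. A single count was worth 0.111 to 0.121 CPM (counts scaled to the library total), and 3 counts, taken as the floor, 0.333 to 0.364 CPM. No molecular identifiers are described, and intervals and floors cover counting error only. Fruit replicate 1 stood apart from the other 3 libraries in several sums of markers. In fruit replicate 2 the summed markers of pollen and anther went against the organ label. The 63 unigenes described as pollen, anther, tapetum or LAT52 proteins had summed levels of 968 CPM in fruit replicate 1 but 7388 CPM in fruit replicate 2, against 3493 and 4176 CPM in floral bud replicates 1 and 2. Of the 50 tested among them, 8 had 0 counts in fruit replicate 1 and 0 of 50 did in fruit replicate 2. The library labelled fruit replicate 2 thus carried more of these transcripts in sum than either bud. Pollen-specific protein C13-like Unigene53762_P106 ran otherwise, at 495 and 368 CPM in the fruits and 336 and 449 CPM in the buds. This unigene alone held 495 of the 968 CPM in fruit replicate 1. Photosynthetic markers summed to 15237 and 5399 CPM in the fruits versus 6150 and 6295 CPM in the buds. Names of floral organ identity factors matched mostly other MADS-box unigenes, and of their sum of 1210 and 317 CPM in the fruits versus 307 and 476 CPM in the buds, AGL61-like Unigene662_P106 alone made up 951 and 159 CPM in the fruits and 130 and 316 CPM in the buds. Seed and embryo markers summed to 548 and 954 CPM in the fruits and 5700 and 5943 CPM in the buds, so both fruits were below both buds. Of these sums, vicilin-like Unigene53698_P106 alone made up 4.11 and 205 CPM in the fruits and 3046 and 2871 CPM in the buds. The median log2 fold change of fruit against bud over the 45 tested seed and embryo markers was -0.25. For these reasons each library is given on its own below.

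All 160 members together reached 2711 CPM in fruit replicate 1 but 9682 CPM in fruit replicate 2, against 6111 and 8287 CPM in floral bud replicates 1 and 2. The fruits thus lay on both sides of the buds. As a share of all counted reads this was 0.271% in fruit replicate 1 (exact 95% interval 0.268 to 0.274) and 0.968% in fruit replicate 2 (0.962 to 0.975), against 0.611% (0.606 to 0.616) and 0.829% (0.823 to 0.835) in the buds. The level in a bulk library cannot tell fewer cells of a type from less RNA per cell. The 2 members with the highest mean held 37.9% of all counts of the members, and without them the sums were 2705 and 5658 CPM in the fruits and 3886 and 4303 CPM in the buds.

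The makeup of the group differed between the fruits as well. Polygalacturonases reached 798 and 4053 CPM in fruit replicates 1 and 2, against 3019 and 4538 CPM in the buds. Exopolygalacturonases, with a single count in fruit replicate 1 or 0.11 CPM, stood at 313 CPM in fruit replicate 2, against 105.8 and 116 CPM in the buds. Pectate lyases summed to 766 and 4496 CPM in the fruits versus 1933 and 2706 CPM in the buds. These enzymes were therefore lowest in fruit replicate 1. Non-catalytic subunits varied less, at 464 and 544 CPM in the fruits and 703 and 532 CPM in the buds. Inhibitors ran the other way, at 683 CPM in fruit replicate 1 but 275 CPM in fruit replicate 2, against 350 and 395 CPM in the buds. The 3 inhibitor unigenes took 25.2% of the counts of all members in fruit replicate 1 (exact 95% interval 24.7 to 25.8) and 2.84% in fruit replicate 2 (2.73 to 2.96), against 5.73% (5.53 to 5.93) and 4.77% (4.61 to 4.93) in the buds.

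**Figure D1:**
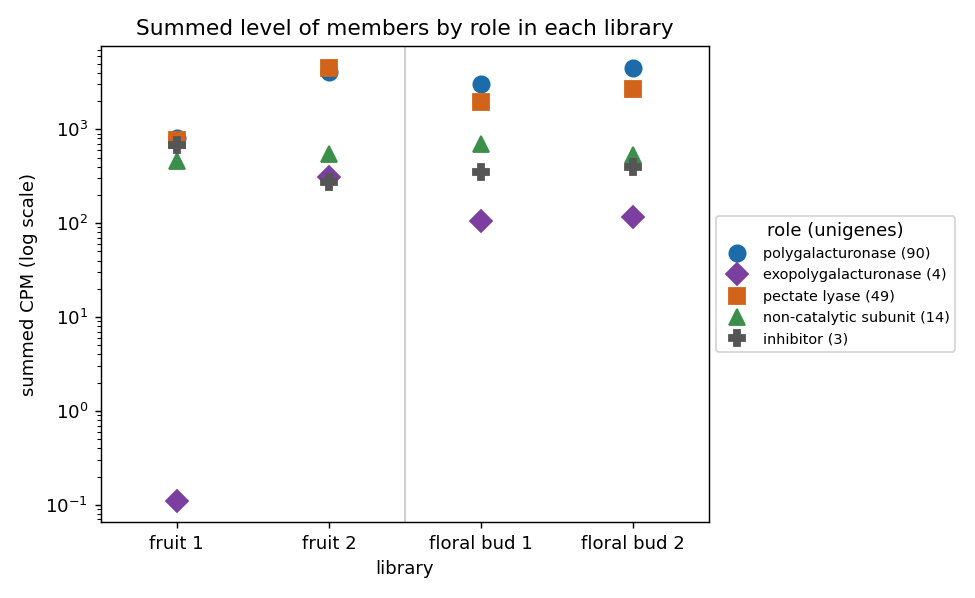
Summed CPM on a log axis for the 5 roles in fruit replicates 1 and 2 and floral bud replicates 1 and 2, each point the sum over the unigenes of a role in 1 library. In fruit replicate 1 the polygalacturonases (798 CPM) and pectate lyases (766 CPM) lay only a little above the inhibitors (683 CPM), while in the other 3 libraries both kinds of enzyme lay far above the inhibitors.

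Fruit was compared with bud by edgeR's quasi-likelihood test over all 59858 unigenes that passed its filter on low counts, which kept 119 of the 160 members. The other 41 members reached at most 22 counts in a library. With Benjamini-Hochberg adjustment over all tested unigenes, edgeR called 0 of 119 members, whether up or down, at the 0.05 threshold, where it called 0% of all tested unigenes in either direction. At an unadjusted p under 0.05 edgeR had 5 members higher, or 4.2%, against 0.51% of all tested unigenes, and 1 lower, or 0.84%, against 1.11%. DESeq2 called 0 of 119 members higher, with 0.0491% of its 61061 unigenes called higher, and 1 of 119 lower, with 0.21% called lower. The median fitted log2 fold change of the 119 members was 0.09, and that of all tested unigenes 0.01. The members' median was 0.14 without fruit replicate 1, -0.59 without fruit replicate 2, -0.02 without bud replicate 1 and 0.34 without bud replicate 2, so its sign is not settled.

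Which fruit library was used decided the calls and their direction. Without fruit replicate 2, edgeR's quasi-likelihood test called 4 members higher and 38 lower of 123 with Benjamini-Hochberg adjustment, where it called 2.29% of all unigenes higher and 6.14% lower. Without fruit replicate 1 it called 15 members higher and 0 lower of 122, against 1.44% higher and 0.466% lower of all. Of the members, 13 were called lower in the first of these fits and higher in the second, namely 10 pectate lyases, 2 polygalacturonases and 1 exopolygalacturonase. This was 10.9% of the 119 members in both fits, where 0.932% of all 62963 unigenes in both had the same pair of calls. Each fit rests on a lone fruit library whose spread is borrowed from the buds, and the fits share those buds.

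With counts under 3 raised to 3, a level in fruit replicate 1 at least 4-fold below each other library was found for 32 of the 119 tested members, or 26.9%, and for 5.2% of all tested unigenes. By role these were 16 of 60 polygalacturonases, 3 of 3 exopolygalacturonases, 12 of 41 pectate lyases, 1 of 12 non-catalytic subunits and 0 of 3 inhibitors. A level in fruit replicate 2 at least 4-fold above each other library was found for 9 members, or 7.56%, of which 8 were pectate lyases, and for 0.737% of all. The opposite patterns were rarer: 2 members, or 1.68%, were at least 4-fold higher in fruit replicate 1 than in each other library, against 0.682% of all, and 0 members were 4-fold lower in fruit replicate 2, against 0.0618%. The pollen and anther markers, whose part in these values was not tested, had the first pattern in 26 of 50 tested unigenes and the second in 5.

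**Figure D2:**
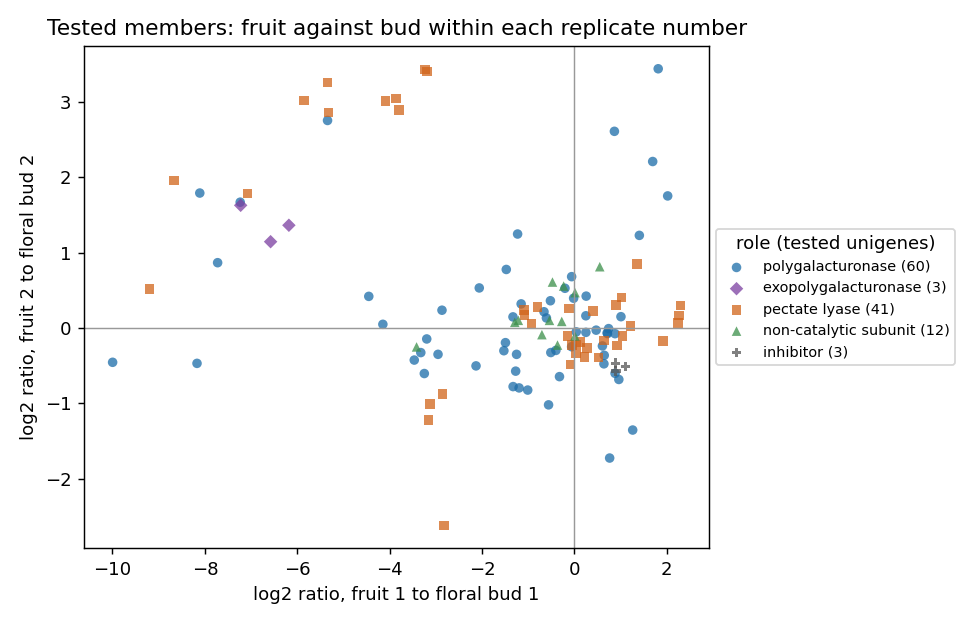
The log2 ratio of fruit to floral bud for each of the 119 tested members, in replicates 1 on the x axis and in replicates 2 on the y axis, with counts under 3 raised to 3 and symbols by role. Exopolygalacturonases and many pectate lyases sit at the upper left, lower than bud in fruit replicate 1 and higher than bud in fruit replicate 2, and the inhibitors sit at the lower right.

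Among the polygalacturonases, the most abundant per length were 2 unigenes described as polygalacturonase-like. Unigene53954_P106 stood at 4.97 and 1956 RPKM (reads scaled to unigene length and library total, as deposited) in fruit replicates 1 and 2, against 1431 and 2710 RPKM in floral bud replicates 1 and 2. Only fruit replicate 1 lay away from the rest, and reads reached 54.0% of the unigene's length there and at least 99.0% in each other library. Its log2 fold change between the organs was -0.97 (SE 2.18, edgeR adjusted p = 1.0). Unigene54989_P106 had 1.57 and 1508 RPKM in the fruits and 1606 and 2069 RPKM in the buds, so both fruits were below both buds, one of them by little. Unigene54608_P106, with the same description, differed in fruit replicate 2: it was at 0.49 and 606 RPKM in the fruits and 136 and 175 RPKM in the buds. Its level in fruit replicate 2 was 3.46 times that of bud replicate 2 (exact 95% counting interval 3.22 to 3.71), while the level of Unigene53954_P106 was 0.72 times that of the same bud (0.71 to 0.74).

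Exopolygalacturonases had the pattern of Unigene54608_P106. The 3 with more than 1 count carried the same description and were 198 to 696 bases long, so they may be pieces of 1 transcript. Unigene53163_P106 had 0.16 and 236 RPKM in the fruits versus 71.6 and 76.5 RPKM in the buds. Unigene54084_P106 had 0 counts in fruit replicate 1 and 405 RPKM in fruit replicate 2, against 161 and 183 RPKM in the buds. Unigene53705_P106 likewise had 0 counts in fruit replicate 1 and 296 RPKM in fruit replicate 2, against 105 and 115 RPKM in the buds. All 3 stood in fruit replicate 2 above both buds, by 2.21 to 3.09 times relative to bud replicate 2.

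The deposited pathway annotation, which the choice of members did not use, separated the polygalacturonases only in part by the same behaviour. Of the 94 polygalacturonases and exopolygalacturonases, 12 carried the KEGG orthology term K01213, which covers exo-acting galacturonidases, 46 carried K01184, the endo-acting polygalacturonases, and 36 carried none. The 12 K01213 unigenes summed to 9.89 and 3560 CPM in the fruits versus 2381 and 3784 CPM in the buds. The sums of the 46 K01184 unigenes were much more even, at 408 and 459 CPM in the fruits and 399 and 510 CPM in the buds. Those of the 36 without a term were 380 and 348 CPM in the fruits and 345 and 360 CPM in the buds. Of the tested unigenes, 9 of 10 with K01213, 5 of 29 with K01184 and 5 of 24 without a term were at least 4-fold lower in fruit replicate 1 than in each other library. This pattern was found for 5.2% of all tested unigenes, and among the polygalacturonases it was not confined to K01213. The K01213 unigenes include Unigene53954_P106, Unigene54989_P106 and Unigene54608_P106, already described above. K01213 unigenes made up 1.24% of the counts of polygalacturonases and exopolygalacturonases in fruit replicate 1 (exact 95% interval 0.996 to 1.52) and 81.5% in fruit replicate 2 (81.1 to 81.9), against 76.2% (75.7 to 76.7) and 81.3% (80.9 to 81.7) in the buds. The exception among the tested K01213 unigenes, Unigene13371_P106, was chosen after its values were seen and had 2.95 and 10.4 RPKM in the fruits versus 4.65 and 8.96 RPKM in the buds.

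**Figure D3:**
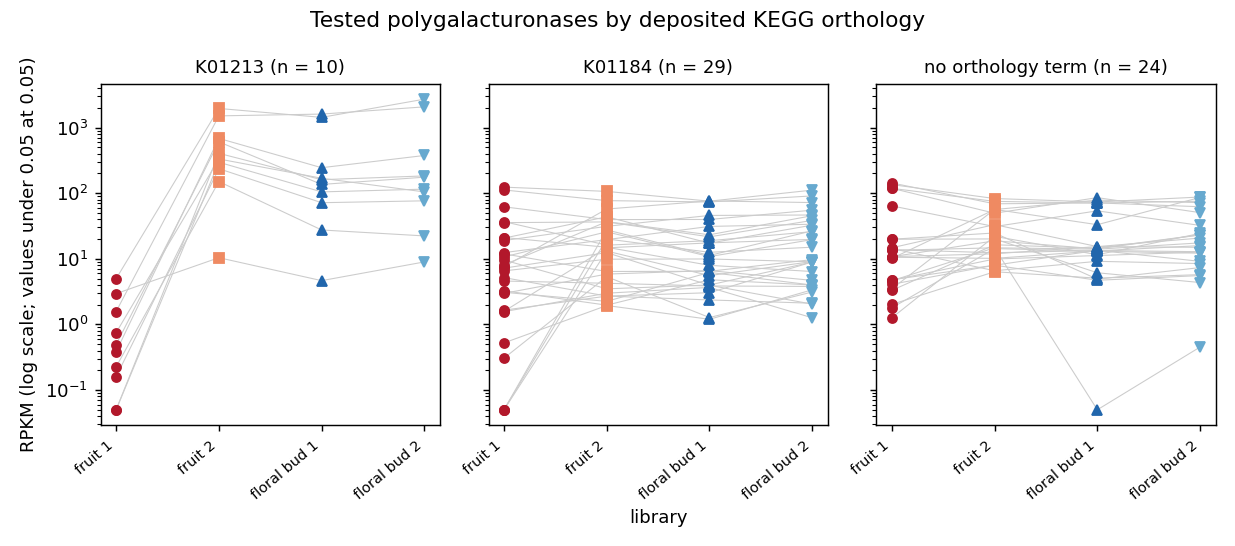
RPKM on a log axis for the tested polygalacturonases and exopolygalacturonases in each library, in 3 panels by deposited KEGG orthology term, with grey lines joining the values of a unigene and values under 0.05 RPKM drawn at 0.05. The 10 K01213 unigenes lie under 5 RPKM in fruit replicate 1 and, but for Unigene13371_P106, at 22.3 RPKM or more elsewhere. The sums of K01184 unigenes, which are not drawn, differ little (408 and 459 CPM in the fruits versus 399 and 510 CPM in the buds). Of the 29 K01184 unigenes drawn, 5 are at least 4-fold lower in fruit replicate 1 than in each other library. The share over all tested unigenes was 5.2%.

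Other polygalacturonases differed less in their sums. The 4 unigenes described as QRT3-like, after an Arabidopsis polygalacturonase needed to separate the pollen grains of a tetrad, summed to 232 and 137 CPM in the fruits versus 127 and 139 CPM in the buds. The 3 tested were each 1.67 to 2.01 times bud replicate 1 in fruit replicate 1 and 0.95 to 1.11 times bud replicate 2 in fruit replicate 2. Fruit replicate 1 was thus their highest library. The 14 unigenes described as At1g48100-like, after an Arabidopsis polygalacturonase, summed to 161 and 184 CPM in the fruits and 112 and 172 CPM in the buds. The largest description, probable polygalacturonase-like with 35 unigenes, summed to 281 and 353 CPM in the fruits and 380 and 400 CPM in the buds. Its unigenes were not uniform. At least 4-fold lower in fruit replicate 1 than in each other library were 7 of 29 tested, against 5.2% of all tested unigenes. With counts under 3 raised to 3, ratios of fruit to bud ran between 0.09 and 4.06 in replicates 1. In replicates 2 they ran between 0.58 and 10.8.

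Polygalacturonases named after tomato enzymes of ripening, dehiscence and abscission were scarce in all 4 libraries. Polygalacturonase-2 precursor, the enzyme known from ripening tomato fruit (Unigene106316_P106, chosen after its values were seen), had 0 and 27 counts in the fruits and 12 and 19 counts in the buds. Unigenes described as dehiscence polygalacturonase summed to 0.44 and 5.46 CPM in the fruits and 1.27 and 3.10 CPM in the buds. The single unigene described here as abscission polygalacturonase had 10 counts in fruit replicate 1 and 0 counts in each other library, and too few reads to be tested. The unigene described as polygalacturonase 4 carries the abscission name in the annotation of replicates 1. It had 15 and 5 counts in the fruits and 6 and 13 counts in the buds.

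Several pectate lyases differed widely between the fruits. Pectate lyase-like isoform 1 (Unigene54249_P106) stood at 1.03 and 1438 RPKM in fruit replicates 1 and 2, against 606 and 1006 RPKM in floral bud replicates 1 and 2. Fruit replicate 2 was thus above both buds and fruit replicate 1 far below them, with 15 counts over 35.4% of the length. The log2 fold change between the organs was -0.05 (SE 2.40, edgeR adjusted p = 1.0). The 10 unigenes described as P59-like, after the tomato late anther pectate lyase LAT59, summed to 1.44 and 1237 CPM in the fruits versus 217 and 261 CPM in the buds. None of the 10 had more than 4 counts in fruit replicate 1. Their longest unigene, Unigene52640_P106, was at 0.18 and 459 RPKM in the fruits and 110 and 118 RPKM in the buds.

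The P59-like unigenes did not move as a single transcript. Among the 9 with at least 20 counts in a library, the ratio of fruit replicate 2 to bud replicate 2 ran between 1.21 and 10.8, and for Unigene52640_P106 it was 3.89 (exact 95% counting interval 3.65 to 4.14). Both unigenes described as pectate lyase 3-like were also above both buds in fruit replicate 2, with summed levels of 0.11 and 314 CPM in the fruits versus 32.6 and 40.8 CPM in the buds. Of these, Unigene52566_P106, chosen after its values were seen, had 0 and 1221 counts in the fruits and 115 and 171 counts in the buds. Relative to the buds of the same number it was at least 39.9-fold lower in fruit replicate 1, taking the floor of 3 counts, and 7.26-fold higher in fruit replicate 2 (6.18 to 8.57).

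Other pectate lyases were highest in fruit replicate 1. Pectate lyase 5-like Unigene55012_P106 stood at 259 and 54.5 CPM in the fruits versus 68.5 and 61.5 CPM in the buds. Reads reached only 13.7% to 17.7% of its 1806 bases in any library, so its deposited RPKM, 143 and 30.2 in the fruits against 37.9 and 34.0 in the buds, rests on a small part of the unigene. Its log2 fold change was 1.22 (SE 0.74, edgeR adjusted p = 1.0). The single pectate lyase 18-like unigene (Unigene128417_P106, chosen after its values were seen) had 66.9 and 17.2 CPM in the fruits versus 13.9 and 15.4 CPM in the buds. Pectate lyase 12-like Unigene22783_P106 had 29.1 and 3.52 CPM in the fruits versus 5.90 and 2.87 CPM in the buds. A second 12-like unigene, Unigene23381_P106, had 22 and 3 counts in the fruits and 3 and 1 counts in the buds, and was not tested. In these 4 unigenes only fruit replicate 1 was set off from the rest. The 4 pectate lyases that edgeR called higher without fruit replicate 2 were Unigene55012_P106, Unigene128417_P106, Unigene22783_P106 and Unigene55011_P106, the last also 5-like and chosen after its values were seen, with log2 fold changes of 1.89, 2.08, 2.64 and 2.07 in that fit (Benjamini-Hochberg adjusted p = 0.000801, 0.000915, 0.000166 and 0.00218).

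**Figure D4:**
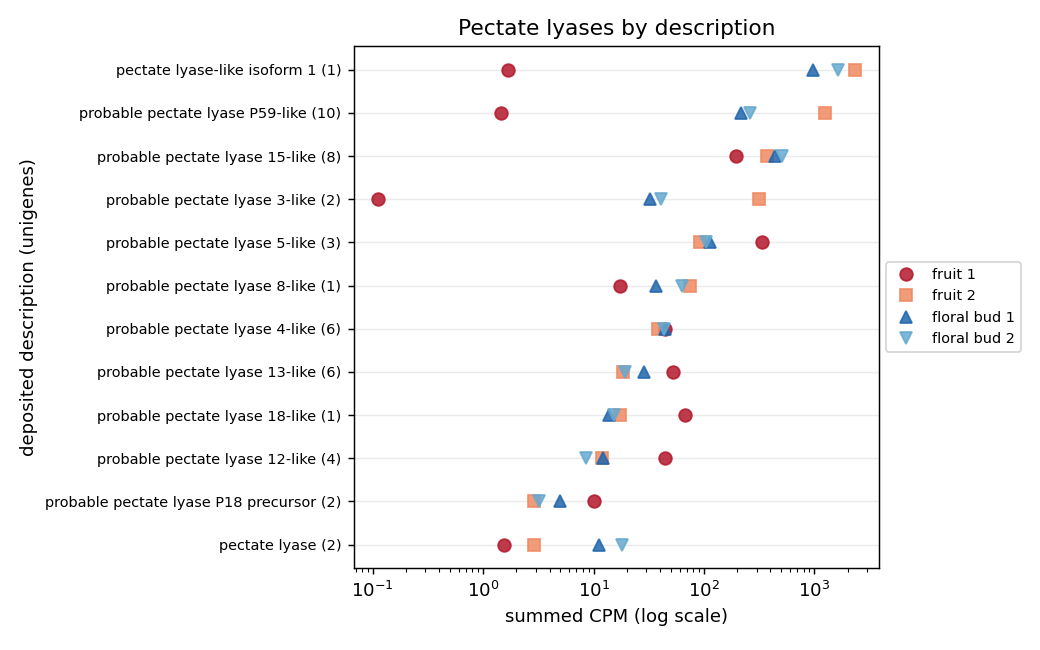
Summed CPM on a log axis for pectate lyases, grouped by deposited description with the number of unigenes in brackets, and a symbol for each library. Pectate lyase-like isoform 1, P59-like and 3-like unigenes lie under 2 CPM in fruit replicate 1 only, whereas 5-like, 18-like and 12-like unigenes are highest there.

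Among the other pectate lyases, the 8 unigenes described as 15-like summed to 194 and 369 CPM in the fruits versus 441 and 508 CPM in the buds, so both fruits were below both buds. The 15-like unigenes were not uniform: the ratio of fruit replicate 1 to bud replicate 1 ran between 0.11 and 1.17, and that of fruit replicate 2 to bud replicate 2 between 0.43 and 1.12. The 6 unigenes described as 4-like hardly differed, at 44.4 and 38.4 CPM in the fruits and 44.0 and 43.2 CPM in the buds. Unigenes described as P18 precursor, after a tomato pectate lyase of the style, summed to 10.1 and 2.91 CPM in the fruits and 4.97 and 3.22 CPM in the buds. Those described as 13-like, 6 unigenes, summed to 51.9 and 18.6 CPM in the fruits and 28.3 and 19.2 CPM in the buds. Fruit replicate 1 was the highest library for both descriptions.

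A few members had both fruits on the same side of both buds by a wide margin. Fruit levels were above both buds without overlap for 11 of 119 tested members, or 9.24%, against 8.49% of all tested unigenes, and below both for 19, or 16%, against 13.6%. These shares were close to those of all unigenes. At least 2-fold higher in fruit within both replicate numbers were 4 members, or 3.36%, against 0.652% of all, and at least 2-fold lower were 3, or 2.52%, against 2.19%. All 4 of the first were polygalacturonases and all 3 of the second pectate lyases. These numbers are small, and edgeR called none of the 7 after adjustment.

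Unigene44792_P106, described as a tomato polygalacturonase, had 18.1 and 12.9 CPM in the fruits versus 6.82 and 5.49 CPM in the buds. Its log2 fold change was 1.33 (SE 0.33, Benjamini-Hochberg adjusted p = 1.0 by edgeR's quasi-likelihood test). Unigene29825_P106, a probable polygalacturonase, had 10.3 and 12.9 CPM in the fruits versus 2.54 and 3.82 CPM in the buds (log2 fold change 1.88, SE 0.44). Unigene31811_P106, with the same description, had 6.0 and 6.07 CPM in the fruits versus 1.85 and 1.31 CPM in the buds (log2 fold change 1.94, SE 0.42). Within each organ these values lay close together, and the fruits lay 2.34 to 4.62 times above the bud of the same number. Unigene29880_P106, a further probable polygalacturonase chosen after its values were seen, had 11 and 32 counts in the fruits and 0 and 1 counts in the buds. It was at least 3.52-fold higher in fruit replicate 1 than in bud replicate 1, and 32.5-fold higher in fruit replicate 2 than in bud replicate 2 with an exact 95% counting interval of 5.43 to 1324. The fifth member with an unadjusted edgeR p under 0.05 and a higher fruit level, Unigene31595_P106, had 19 and 30 counts in the fruits and 10 and 5 counts in the buds (log2 fold change 1.74, SE 0.65, Benjamini-Hochberg adjusted p = 1.0). All 5 were polygalacturonases at under 19 CPM in every library. Over the 5, the adjusted DESeq2 p was lowest for Unigene29825_P106, at 0.0923. Without fruit replicate 1 edgeR called Unigene29825_P106 (adjusted p = 0.0243) and Unigene29880_P106 (adjusted p = 0.00901) higher.

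Lower in both fruits was Unigene138205_P106, whose match is a pectate lyase of cotton (Gossypium hirsutum). It had 1.56 and 2.91 CPM in the fruits versus 11.0 and 17.9 CPM in the buds, and was 7.07-fold and 6.15-fold lower than the bud of the same number. With a log2 fold change of -2.66 (SE 0.58) it was not called by edgeR (Benjamini-Hochberg adjusted p = 1.0), and it was the single member called by DESeq2 (adjusted p = 0.0119). Without fruit replicate 2 edgeR called it too (adjusted p = 0.000316), and without fruit replicate 1 it did not (adjusted p = 0.0505). It was also the single tested member at least 4-fold lower within both replicate numbers, or 0.84%, against 0.73% of all tested unigenes, and 0 members were 4-fold higher, against 0.0568%. Pectate lyase 15-like Unigene11572_P106 had 5.89 and 21.5 CPM in the fruits versus 51.5 and 43.3 CPM in the buds (log2 fold change -1.71, SE 0.74, edgeR adjusted p = 1.0), with a log2 fold change of -1.02 without fruit replicate 1 and -3.10 without fruit replicate 2 (edgeR adjusted p = 6.12e-05). Unigene109723_P106, also 15-like and chosen after its values were seen, had 14.8 and 61.5 CPM in the fruits versus 132 and 143 CPM in the buds. In both, the fruits differed from each other more than the buds did. A polygalacturonase that the test ranked among the lowest p in this direction, Unigene143895_P106, had 9.0 and 14.2 CPM in the fruits versus 22.6 and 24.4 CPM in the buds (log2 fold change -0.98, SE 0.42, edgeR Benjamini-Hochberg adjusted p = 1.0).

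**Figure D5:**
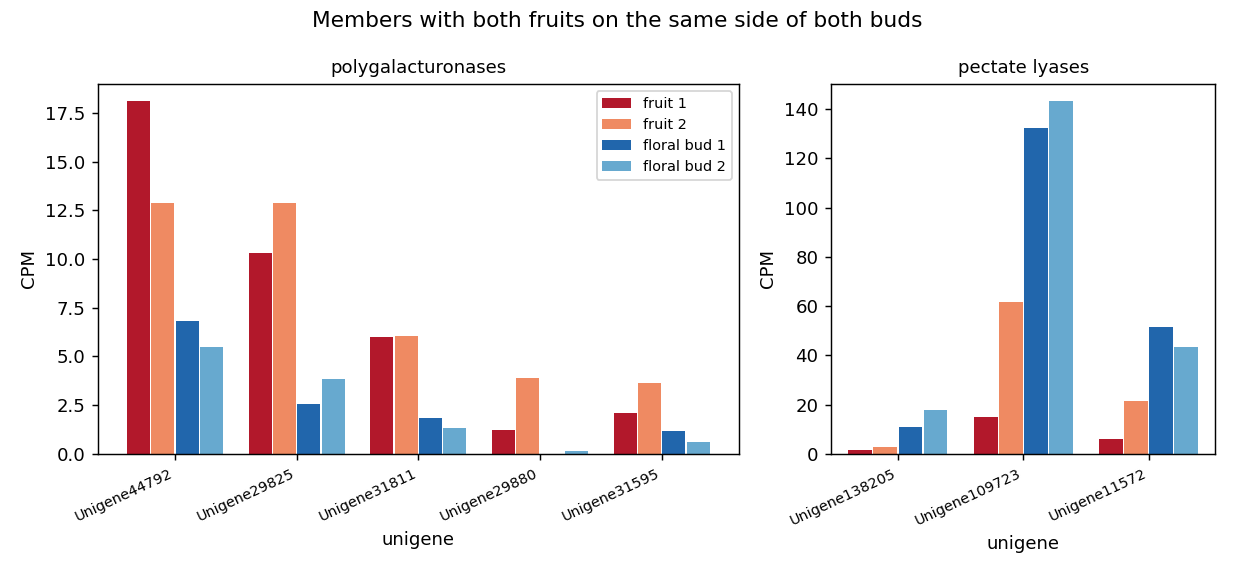
CPM in each library for 5 polygalacturonases on the left and 3 pectate lyases on the right, with bars for fruit replicates 1 and 2 and then floral bud replicates 1 and 2. Each polygalacturonase has both fruits above both buds, from 12.9 CPM and higher against 6.82 CPM and lower in Unigene44792_P106, and each pectate lyase has both fruits below both buds.

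Non-catalytic subunits are members without enzyme activity of their own. The one with the highest mean CPM, Unigene604_P106, described as the tomato polygalacturonase-1 beta subunit, had 193 and 257 RPKM in the fruits versus 314 and 274 RPKM in the buds (log2 fold change -0.35, SE 0.41, edgeR adjusted p = 1.0). That fold change was -0.067 without fruit replicate 1 and -0.71 without fruit replicate 2. Unigene54188_P106 and Unigene53079_P106, both described as AroGP2, a second tomato subunit, were next in CPM. Unigene54188_P106 had 178 and 223 RPKM in the fruits and 259 and 208 RPKM in the buds. Unigene53079_P106 had 87.7 and 174 RPKM in the fruits and 203 and 162 RPKM in the buds. The 7 unigenes described as the beta precursor summed to 306 and 313 CPM in the fruits and 440 and 314 CPM in the buds. Bud replicate 1 was the highest library for both descriptions.

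Inhibitors were the members with the highest deposited RPKM in fruit replicate 1. Unigene53338_P106, described as a polygalacturonase inhibiting protein, stood at 756 and 226 RPKM in the fruits versus 350 and 322 RPKM in the buds. Unigene54270_P106, an inhibitor precursor, had 554 and 213 RPKM in the fruits versus 298 and 295 RPKM in the buds. Unigene53955_P106 had 418 and 221 RPKM in the fruits versus 224 and 329 RPKM in the buds. In all 3 fruit replicate 1 was the highest library and fruit replicate 2 the lowest, so the fruits enclosed the buds. Their log2 fold changes were 0.51 (SE 0.60), 0.34 (SE 0.51) and 0.18 (SE 0.47), each with an edgeR adjusted p of 1.0.

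The members therefore spread more between the fruits than between the buds. The log2 ratio of fruit replicate 1 to fruit replicate 2 ran between -10.7 and 3.05 over the 119 tested members with counts under 3 raised to 3, with a median of -0.71. Over all tested unigenes the range was wider, -12.26 to 10.25, with a median of 0.21. The lower and upper quartiles lay further apart for the members, at -2.695 and 0.60, against -0.48 and 0.82 for all. The ratio of bud replicate 1 to bud replicate 2 ran between -2.12 and 1.79, with a median of -0.14. Over all tested unigenes it ran between -4.61 and 7.08, with a median of 0.11. Here the quartiles were -0.59 and 0.22 for the members and -0.35 and 0.61 for all. In fruit replicate 1, 21 of the 119 had at most 3 counts, against 1 in each bud and 0 in fruit replicate 2. The share of all tested unigenes with so few counts was not taken.

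Other genes of pectin metabolism shared these features in part. Pectinesterases and their inhibitors, 115 unigenes, summed to 3331 and 8571 CPM in the fruits versus 3876 and 4580 CPM in the buds. Of 88 tested, 29 were at least 4-fold lower in fruit replicate 1 than in each other library, against 5.2% of all tested unigenes. The one with the highest mean CPM, Unigene53890_P106, had 4.89 and 1162 CPM in the fruits versus 420 and 584 CPM in the buds. Galacturonosyltransferases, which build the backbone, were even in their sums, with 81 unigenes at 1394 and 1363 CPM in the fruits and 1372 and 1366 CPM in the buds. Single unigenes were less even. Of 65 tested, 5 were at least 4-fold lower in fruit replicate 1 than in each other library. At least 4-fold higher in fruit replicate 2 than in each other library were 4 of the 65, against 0.737% of all tested unigenes. The one with the highest mean CPM, galacturonosyltransferase 8-like Unigene120124_P106, had 280 and 213 CPM in the fruits versus 263 and 274 CPM in the buds. Rhamnogalacturonate lyases, which cut the branched pectin backbone, were rare, with 30 unigenes at 95.8 and 39.2 CPM in the fruits and 78.7 and 64.5 CPM in the buds. The one with the highest mean CPM, Unigene71109_P106, had 2.78 and 5.58 CPM in the fruits versus 13.1 and 14.8 CPM in the buds, so both fruits were below both buds. Glycosidases that trim side chains, 99 unigenes, summed to 5239 and 3229 CPM in the fruits versus 2389 and 2273 CPM in the buds. Of 80 tested, 10 were at least 4-fold lower in fruit replicate 1 than in each other library, and 6 at least 4-fold higher. The latter share was 0.682% over all tested unigenes. The one with the highest mean CPM, beta-galactosidase 2 precursor Unigene52662_P106, had 1.44 and 1466 CPM in the fruits versus 633 and 780 CPM in the buds. The single pectin acetylesterase unigene had 0.33 CPM or less in every library. Over these lists edgeR called 0 unigenes in either direction after adjustment, and DESeq2 called 1 pectinesterase or inhibitor lower.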

How the data were processed

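Total RNA of young fruits and floral buds was sequenced on an Illumina HiSeq instrument, per the labels' protocols; a mixed library used for assembly was not analysed here. The deposited counts are, per the file headers, reads mapped to a single unigene, the deposited RPKM values scale them by unigene length and library total, and the deposited coverage is the percent of a unigene's length reached by reads. The software behind assembly, mapping and counting is not named in the sources used here. Where a file lacked a unigene, its count was set to 0. Unique counting can split or drop reads of near-identical unigenes, so members that share a description have uncertain separate levels. No genome or sequence was used.

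The 4 files were joined by unigene. Descriptions came from the files of replicates 2 where given and otherwise from those of replicates 1. Roles and lists were word patterns on them. The test on counts was that of edgeR 4.0.16 under R 4.3.3 (filterByExpr, TMM factors, glmQLFit, glmQLFTest, 2 residual degrees of freedom, Benjamini-Hochberg over all tested unigenes, threshold 0.05, two-sided), and with DESeq2 1.42.0 as an alternative. An exact permutation of 2 against 2 libraries cannot go below p = 0.333, so sums were not tested. Ratios within a replicate number compare 2 libraries, use library totals and carry counting intervals only. SE was obtained from the log2 fold change and the F statistic. On simulated counts the recovery by the edgeR test of fold changes set in advance was checked, but the SE was not. Alternatives were other scalings and filters, a replicate block, leaving out each library, summing by description and membership by the other set of descriptions.

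Members, roles and lists were chosen with earlier results of these data known. Named unigenes were, by rule, the 3 with the highest mean CPM in each role, the 3 smallest p in each direction, those 4-fold apart in both replicate numbers, the 3 highest in each library, the 3 with the largest ratio between the fruits in each direction, and the most abundant of each pathway list; others were chosen after their values were seen.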

Additional observations from a re-analysis of the deposited data

How the results depend on the processing

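The counts of calls changed with the tool and with the fruit library. Over all unigenes edgeR called 0 higher and 0 lower, while DESeq2 called 30 and 128, of which 1 member was lower. Leaving out each library in turn gave 0 to 1546 higher and 0 to 4135 lower over all unigenes, and 0 to 15 higher and 0 to 38 lower over members. RLE factors, library totals, a filter of 10 counts in every library of 1 organ, no filter and the replicate block gave 0 calls of members and of all unigenes. The summed exopolygalacturonases had a log2 ratio of fruit to bud of 0.50, and -9.96 to 1.5 with a library left out. The same ratio was -0.64 (-2.24 to 0.10) for polygalacturonases, 0.18 (-1.60 to 0.95) for pectate lyases, 0.36 (-0.44 to 0.87) for inhibitors and -0.29 (-0.48 to -0.079) for non-catalytic subunits. The median log2 fold change of members, 0.09, was -0.59 to 0.34 with a library left out and -0.12 with the replicate block. The cause was not tested.

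The sign of the log2 fold change turned for 17 named members when a library was left out. Among polygalacturonases and exopolygalacturonases the range was -8.83 to 0.0231 for Unigene53954_P106, -8.36 to 2.08 for Unigene54608_P106, -7.05 to 0.95 for Unigene106316_P106, -1.33 to 0.72 for Unigene13371_P106, -8.78 to 1.79 for Unigene53163_P106, -11.3 to 1.35 for Unigene54084_P106 and -10.8 to 1.55 for Unigene53705_P106. Among pectate lyases it was -9.72 to 0.94 for Unigene54249_P106, -9.31 to 2.13 for Unigene52640_P106, -10.2 to 3.25 for Unigene52566_P106, -0.13 to 1.89 for Unigene55012_P106 and -0.18 to 2.64 for Unigene22783_P106. Among subunits and inhibitors it was -0.48 to 0.059 for Unigene54188_P106, -1.16 to 0.0566 for Unigene53079_P106, -0.21 to 0.58 for Unigene53955_P106, -0.35 to 0.80 for Unigene54270_P106 and -0.45 to 1.07 for Unigene53338_P106. The other 13 fitted members named kept their sign, but edgeR called Unigene54989_P106 (-10.3 to -0.17), Unigene109723_P106 (-3.33 to -1.04), Unigene11572_P106 (-3.10 to -1.02), Unigene138205_P106 (-3.33 to -2.15), Unigene128417_P106 (0.35 to 2.08) and Unigene55011_P106 (0.24 to 2.07) without fruit replicate 2, and Unigene29825_P106 (1.57 to 2.30) and Unigene29880_P106 (4.27 to 7.57) without fruit replicate 1. Unigene604_P106 ran from -0.71 to -0.067. Unigene29880_P106 had no fitted value without fruit replicate 2, so its sign in that setting is not known.

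Same-numbered libraries deviated from their organ means with a correlation of 0.458, with only 2 pairs. They share an annotation format, but no source used here ties a number to a plant, batch or day, so they were not treated as pairs. With the replicate block the log2 fold change was -2.71 for Unigene54608_P106, -2.57 for Unigene53163_P106, -2.57 for Unigene54084_P106, -2.22 for Unigene53705_P106, -3.05 for Unigene52640_P106, -1.12 for Unigene52566_P106 and -0.19 for Unigene13371_P106, all of opposite sign to the fit without it, and 0 members were called. Library totals alone turned Unigene13371_P106 to -0.0281. No exopolygalacturonase is so described in the files of replicates 1, so membership by those descriptions gave no value for that role, and Unigene23381_P106 had too few counts for a fitted fold change. Members with few counts, such as the 21 at 3 counts or fewer in fruit replicate 1, are limited by depth.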
